A study of Mus musculus with 6 samples.

Results

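Cytosolic translation factors were examined in liver RNA of mice lacking Atp7b and of wild-type mice, as every probe set with a single platform gene symbol that starts with Eif or Eef followed by a digit, other than the eIF2 kinase gene Eif2ak3. The rule found 44 of the 7163 singly named genes, read by 88 probe sets. Of these, 83 probe sets for 43 genes reached an average signal of 100 across the 6 arrays and were tested. The remaining 5 lay under that signal: the only probe set of Eef1akmt1 (54.3 to 99.5), a methyltransferase gene of eEF1A, and 1 probe set each of Eif2s2, Eif3a, Eif3l and Eif4e.

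The study hybridised 6 total RNA samples of liver to 1 Affymetrix array each. Of these, 3 came from mice labelled ATP7B KO, which lack the copper-transporting ATPase whose loss causes copper storage in Wilson disease, and 3 from mice labelled wild type. Samples are named by group and label number, as KO903, KO904 and KO905 against WT4, WT5 and WT6. The labels point to an earlier description of the knockout line and give no strain, allele name, sex, age, diet or agent for either group; the series title places the knockout livers early in copper accumulation. The labels leave it unsaid whether the samples are different animals, and the p-values therefore reflect sample-to-sample spread alone, which may be technical.

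Translation starts when the initiator tRNA, carried to the small ribosomal subunit by eIF2 and GTP, is placed on the start codon with the help of eIF1, eIF1A, eIF3 and eIF5. The mRNA is brought in by eIF4F, which joins the cap-binding protein eIF4E, the scaffold eIF4G and the RNA helicase eIF4A. The factor eIF2B recharges eIF2, stress-activated kinases block that step, and 4E-binding proteins hold eIF4E back. Elongation is carried by eEF1A, which delivers aminoacyl-tRNA, and by the translocase eEF2. Liver translates heavily to make plasma proteins.

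The arrays were alike in level, with median signals of 331 to 343, and the 3' to 5' signal ratios were 1.10 (WT5) to 1.47 (WT6) for actin and 0.815 to 0.990 for Gapdh. The hepatocyte genes Alb (21282 to 27522) and Ttr (21583 to 26801) were bright on every array. The X-inactivation transcript Xist is made in cells with more than 1 X chromosome. On its brightest probe set Xist stood at 3617 to 4284 in the knockout and 2943 to 4048 in wild type, with overlap. Its dimmer probe sets lay the other way, lower in the knockout without overlap. They read 1097 to 1133 against 1184 to 2385, and 107 to 147 against 154 to 358, with WT6 the highest array on both. The targeted gene had 1 probe set, at 219 ± 29.9 (SD, n = 3) against 267 ± 30.1 (SD, n = 3), a log2 difference of -0.27 with an adjusted p of 0.407. Its place relative to the deletion was not examined, so it is no check of the labels.

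Translation factor transcripts differed little between the groups. A single member probe set of 83 (1.20%) passed an adjusted p of 0.05 in limma, reading the helicase gene Eif4a1, and it was lower in the knockout. Over all 10620 tested probe sets 4.14% passed, 2.05% as higher and 2.09% as lower. None of the 43 genes passed on its brightest probe set, the one that stands for the gene below, against 3.94% of all 6604 genes. Of the 43, 7 (16.3%) had an unadjusted p under 0.05, against 18.0% of all genes; for probe sets these were 18 of 83 (21.7%) against 17.9%, the share to set beside each such count below. No member probe set differed by 1.5-fold or more, and the largest difference was 1.49-fold, while 5.24% of all tested probe sets passed 1.5-fold. Folds and log2 differences here are on the log2(signal + 16) scale, knockout minus wild type, which understates the change of dim probe sets. The 95% interval of the difference lay within 2-fold in either direction for all 83 member probe sets, against 94.8% of all tested probe sets. It lay within 1.5-fold for 65 member probe sets (78.3%), against 65.2% of all tested. The median standard error of members was 0.13 and that of all tested probe sets 0.15.

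Most of the small differences were toward lower signals in the knockout. Of the 83 probe sets, 54 (65.1%) had a log2 difference below 0, against 45.4% of all tested probe sets, and the median over the 43 genes was -0.06, against 0.03 over all genes. By gene the share below 0 was smaller, 25 of 43 (58.1%), against 43.6% of all genes. Of the 43 genes, 10 had groups that did not overlap (23.3%, background 24.1%). Of these, 9 were lower in the knockout (20.9%, background 10.1%) and 1 higher (2.33%, background 14.0%). The 3 knockout signals lay apart from the 3 wild-type signals for 22 member probe sets (26.5%; background 23.6%), 19 of them lower in the knockout (22.9%; background 10.4%) and 3 higher (3.61%; background 13.2%). Array by array, the median deviation of the 43 genes from their own means was 0.02 in KO903, -0.05 in KO904 and -0.05 in KO905, against 0.03 in WT4, 0.02 in WT5 and 0.05 in WT6. On these values KO903 and WT5 stood level, and only KO904 and KO905 had medians below 0. The same medians over all 6604 tested genes were 0.029, 0.038 and -0.005 in KO903, KO904 and KO905. They were -0.023, -0.004 and -0.004 in WT4, WT5 and WT6. The members lay below that background on each knockout array and above it on each wild-type array.

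**Figure D1:**
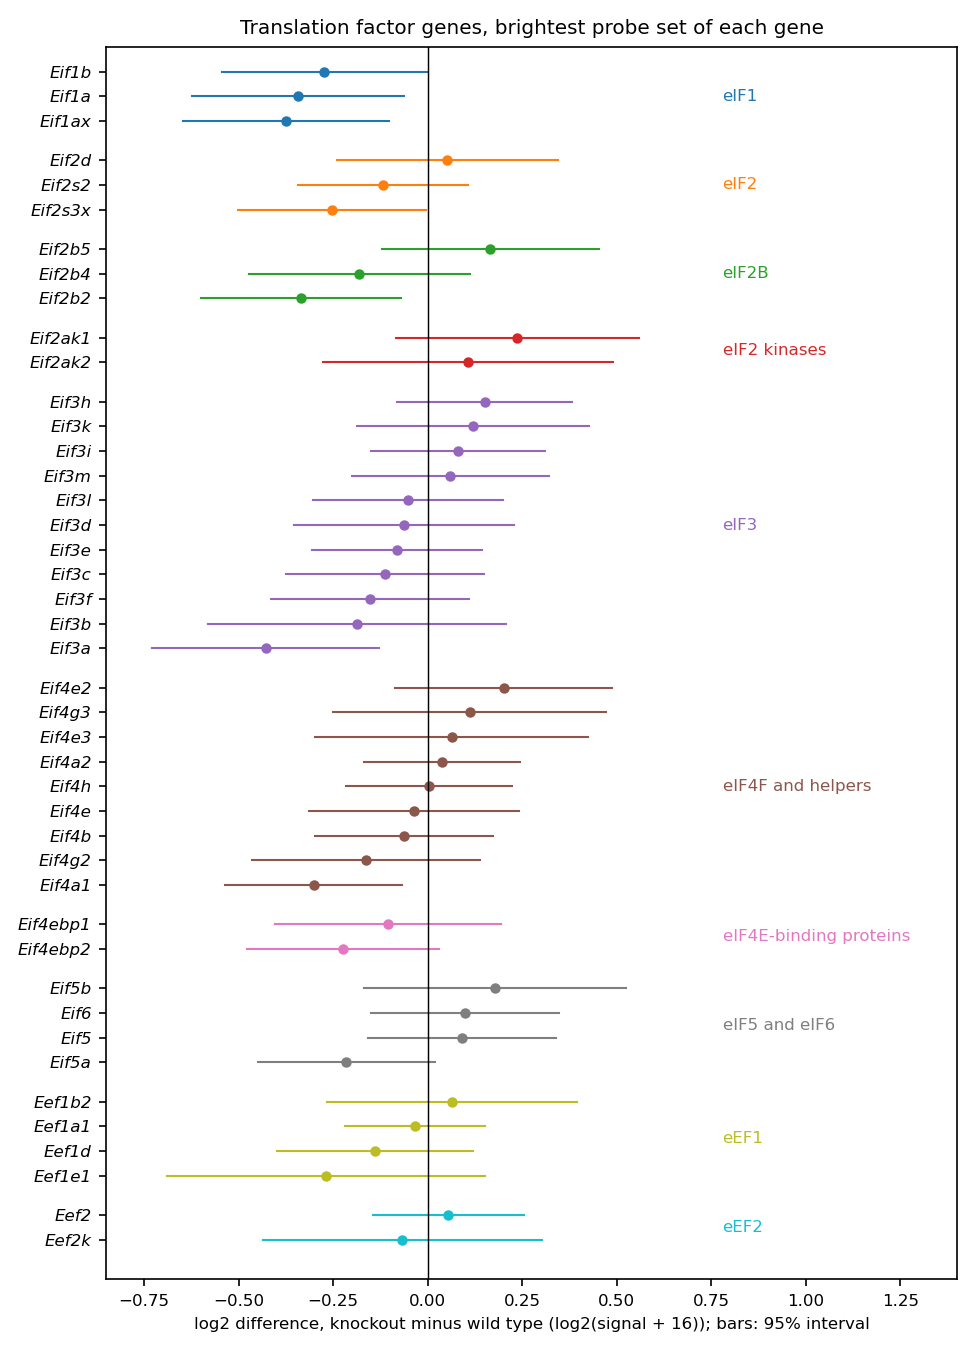
Log2 difference (knockout minus wild type, on log2(signal + 16)) of the 43 tested translation factor genes, each on its brightest probe set, with 95% intervals as bars and colours for the 10 factor groups. All points lie between -0.43 (Eif3a) and 0.24 (Eif2ak1), and the 3 eIF1 genes lie to the left of 0.

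In the eIF4F group, which loads mRNA onto the ribosome, 1 of 20 tested probe sets passed, and the median over its 9 genes was 0.00. That median had no stable sign: it turned below 0 in 7 of 16 alternatives, among them centring of the arrays. Eif4a1, the main eIF4A helicase, was read by 3 probe sets. On 1434985_a_at its signal was 1173, 1151 and 1374 in KO903, KO904 and KO905 and 1852, 1736 and 1920 in WT4, WT5 and WT6. Every knockout array lay below every wild-type array. The means were 1232 ± 123 and 1836 ± 93.1 (SD, n = 3 each), a 1.49-fold fall (log2 -0.57 ± 0.11 SE, adjusted p = 0.0191). Leaving out KO903, KO904, WT4 or WT6 ended the call (adjusted p = 0.0745, 0.0882, 0.0607 and 0.0591). The share called over all tested probe sets also fell without any 1 of these arrays, from 4.14% to between 1.65% and 2.56%.

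The other probe sets of Eif4a1 leaned the same way without passing. The brightest, 1427058_at, gave 2792, 2349 and 2768 in the knockout and 3145, 3188 and 3401 in wild type, again with no overlap (log2 -0.30 ± 0.11 SE, adjusted p = 0.156). The remaining one, 1430980_a_at, gave 2514, 2652 and 2308 against 2827, 3405 and 2614, where KO904 lay above WT6 (log2 -0.24 ± 0.12 SE, adjusted p = 0.340). So the size for this gene ran from 1.18-fold to 1.49-fold by probe set, and just 1 of the 3 met the threshold.

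Eif4a1 is shown with the 250 bases before its RefSeq start on GRCm38.p6, chr11:69672424-69672673, minus strand, because it is the member with a call. They are printed 5′ to 3′ with the 1 match to CACGTG in capitals. This palindromic hexamer, the E-box bound by MYC, USF and the circadian CLOCK and BMAL1 proteins, reads the same on both strands.
Eif4a1: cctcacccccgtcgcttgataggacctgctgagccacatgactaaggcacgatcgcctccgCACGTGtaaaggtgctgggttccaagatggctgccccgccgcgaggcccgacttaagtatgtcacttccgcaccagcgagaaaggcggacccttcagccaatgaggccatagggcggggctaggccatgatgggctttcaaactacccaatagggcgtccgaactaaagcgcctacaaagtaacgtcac

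Of the 44 members, 34 matched a RefSeq promoter entry, a window of 300 bases from 250 before to 50 after a start. CACGTG lay in the window of 10 of the 34 genes (29.4%), against 12.2% of the 5441 tested genes with an entry and 8.09% of all 27025 genes in the table. These shares describe the windows and were not tested, and a match is not a bound site. The median log2 difference was -0.11 over the 10 genes with the hexamer and -0.04 over the 24 without, and the ranges overlapped (-0.43 to 0.12 and -0.37 to 0.24). Matches and their flanks are shown for the cap-binding protein Eif4e, the eIF4A cofactor Eif4h, the start-site factor Eif1b, the ribosome-binding subunit genes Eif3f and Eif3k, the hypusine-bearing factor Eif5a, the translocase Eef2 and its kinase Eef2k, to set beside that of Eif4a1. Eif4e has 2 matches, and Eif5a 2 across its annotated starts. The remaining gene with a match, Eif3a, holds it after its start, 23 bases on, and its flanks are not printed. Each runs 5′ to 3′ on its gene's strand with the hexamer in capitals.
Eif4e (chr3:138527030-138527055, plus): cgccagcgacCACGTGatcacttttt
Eif4e (chr3:138527194-138527219, plus): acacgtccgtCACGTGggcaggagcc
Eif4h (chr5:134639490-134639515, minus): gccgccgcacCACGTGggccgcagag
Eif1b (chr9:120492572-120492597, plus): tgcggacggtCACGTGgcggcggcgc
Eif3f (chr7:108934337-108934362, plus): agatatgattCACGTGgtataaattt
Eif3k (chr7:28981917-28981942, minus): ggaaggaaatCACGTGgtagacaaaa
Eif5a (chr11:69920793-69920818, minus): gctgcgcggcCACGTGaggtggggga
Eif5a (chr11:69921445-69921470, minus): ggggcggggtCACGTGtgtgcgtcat
Eef2 (chr10:81176578-81176603, plus): ccggcgccgtCACGTGacgcacccaa
Eef2k (chr7:120842790-120842815, plus): cggggacggcCACGTGagcccgggcg

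Among the other eIF4 genes, Eif4g2, an eIF4G relative that lacks the eIF4E-binding part, came nearest to the threshold. On 1415863_at it read 1403, 1277 and 1338 in the knockout and 1835, 1828 and 1674 in wild type. The groups did not overlap (log2 -0.41 ± 0.11 SE, adjusted p = 0.0571). Its brightest probe set, 1452758_s_at, read 3109, 3421 and 3458 against 3786, 3034 and 4496, where WT5 was the lowest of all 6 arrays (log2 -0.16 ± 0.14 SE, adjusted p = 0.595).

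Eif4e, the cap-binding protein, differed little, with 780, 676 and 722 in the knockout and 685, 841 and 712 in wild type (log2 -0.04, 95% interval -0.31 to 0.24). Its relative Eif4e2, which binds caps without recruiting eIF4G and is known for repression, read 888, 808 and 851 against 854, 725 and 644 (log2 0.20, adjusted p = 0.471). For both, the groups overlapped. The second helicase gene Eif4a2 (log2 0.04), the helicase cofactor genes Eif4b (-0.06) and Eif4h (0.00), Eif4g3 (0.11) and Eif4e3 (0.06) had adjusted p of at least 0.784. Eif4a1 and Eif4a2 encode near-identical helicases, and the difference between their log2 differences was not tested.

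The 4E-binding proteins, which sequester eIF4E until mTOR phosphorylates them, had 0 of 5 probe sets called by limma (0 at an unadjusted p under 0.05). All 5 log2 differences were below 0, from -0.22 to -0.06. Eif4ebp2 read 896, 1017 and 1037 in the knockout and 1112, 1105 and 1231 in wild type on its brightest probe set, with no overlap (log2 -0.22 ± 0.12 SE, adjusted p = 0.344). On its other 2 probe sets the groups overlapped. Eif4ebp1 read 863, 872 and 876 against 776, 1083 and 980, a wild-type spread that took in all knockout values (log2 -0.11, 95% interval -0.40 to 0.19).

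The eIF1 group covers genes for eIF1 and eIF1A, which scan for the start codon and guard its choice. Its 3 tested genes all lay lower in the knockout without overlap, as did 10.1% of all genes, and none passed by limma (3 of 4 probe sets at an unadjusted p under 0.05; background 17.9%). Eif1ax, one of the eIF1A genes, read 481, 501 and 564 in the knockout and 641, 726 and 649 in wild type (log2 -0.37 ± 0.12 SE, adjusted p = 0.13). Eif1a, the other eIF1A gene, read 314, 315 and 292 against 390, 422 and 371 on 1424344_s_at (log2 -0.34 ± 0.13 SE, adjusted p = 0.18). Eif1b, a copy of eIF1, read 362, 359 and 340 against 425, 454 and 413 (log2 -0.27 ± 0.12 SE, adjusted p = 0.274).

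The median of the eIF1 group was -0.34, the lowest of the 10 groups, and stayed between -0.38 and -0.28 in all 16 alternatives, where the median over all genes was 0.01 to 0.05. The second probe set of Eif1a overlapped, with WT6 (308) inside the knockout range of 304 to 321 (log2 -0.22, adjusted p = 0.462). Eif1a and Eif1ax encode near-identical proteins, and an Affymetrix name ending in _s_at marks probes shared by more than 1 transcript, so the genes may share signal.

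**Figure D2:**
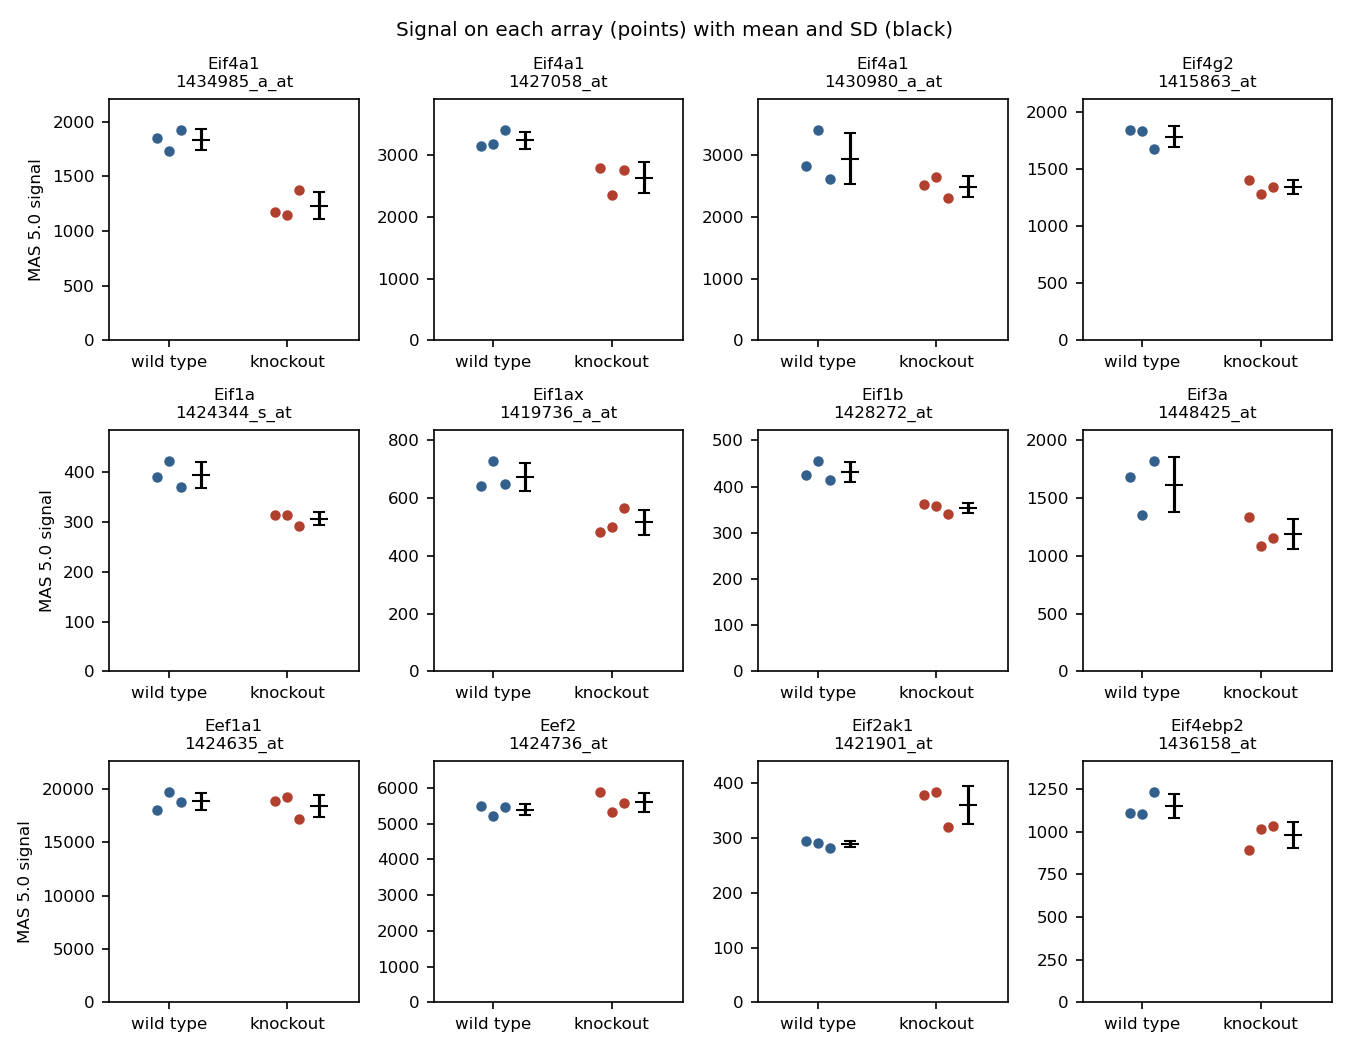
MAS 5.0 signal (linear axis from 0) of 12 probe sets on each array, wild type in blue and knockout in red, with the mean and SD of 3 arrays in black. All tested probe sets of Eif4a1 are shown, and each other gene is on its probe set with the smallest p. On their brightest probe sets Eif4g2 and Eif2ak1 overlap. The groups lie apart for Eif4a1 on 1434985_a_at and 1427058_at, Eif4g2, the eIF1 genes, Eif3a, Eif2ak1 and Eif4ebp2, and overlap for Eif4a1 on 1430980_a_at, Eef1a1 and Eef2.

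The eIF2 group brings the initiator tRNA, and limma called 0 of its 10 tested probe sets (5 at an unadjusted p under 0.05). Its 2 subunit genes were read by several probe sets each, and these disagreed most of all members for Eif2s2, which encodes the beta subunit. On 1448820_a_at Eif2s2 read 468, 435 and 479 in the knockout and 651, 600 and 687 in wild type, lower without overlap (log2 -0.47 ± 0.12 SE, adjusted p = 0.0549). On 1448819_at it read 785, 762 and 938 against 605, 637 and 578, higher without overlap (log2 0.43 ± 0.13 SE, adjusted p = 0.0822). The 2 readings have opposite directions, so the array gives no single direction for this gene.

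Eif2s2 was also lower on 1456617_a_at without overlap (771, 924 and 1013 against 1256, 1174 and 1163; log2 -0.41, adjusted p = 0.104), while the brightest, 1417712_at, read 1978, 2042 and 1954 against 2304, 2174 and 2014 and overlapped (log2 -0.12, adjusted p = 0.61). Eif2s3x, the X-linked gene of the gamma subunit, read 1975, 1676 and 1885 in the knockout and 2131, 2418 and 2062 in wild type on its brightest probe set (log2 -0.25 ± 0.11 SE, adjusted p = 0.269). The groups did not overlap there or on 1451090_a_at (log2 -0.31), and they overlapped on 1421895_at (0.12). Eif2d, an eIF2-independent tRNA delivery factor, was near 0 on its brightest probe set (log2 0.05, 95% interval -0.24 to 0.35). The alpha subunit gene Eif2s1, whose product the kinases phosphorylate, and the Y-linked Eif2s3y were not analysed here.

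The genes of eIF2B, which exchanges GDP for GTP on eIF2, had differences in both directions, and limma called 0 of 5 probe sets (1 at an unadjusted p under 0.05). Eif2b2 was read by 3 probe sets, of which 1434538_x_at gave 405, 371 and 382 in the knockout and 493, 475 and 505 in wild type, lower without overlap (log2 -0.33 ± 0.12 SE, adjusted p = 0.166). Its other probe sets leaned the opposite way, with overlap, at log2 0.12 and 0.33. Eif2b4 (log2 -0.18) and Eif2b5, the catalytic subunit (0.17), overlapped between groups. The group's median of -0.18 turned above 0 without WT6 (0.15) and when a gene's probe sets were averaged (0.04).

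The eIF2 kinases shut down initiation under stress by phosphorylating eIF2. Eif2ak1, the heme-regulated kinase, had higher mean signals in the knockout. It read 511, 525 and 429 against 444, 447 and 347 on 1421900_at, with overlap (log2 0.24 ± 0.15 SE, adjusted p = 0.441). On 1421901_at it read 379, 384 and 321 against 295, 291 and 283, without overlap (log2 0.30 ± 0.13 SE, adjusted p = 0.269). Eif2ak2, the kinase activated by double-stranded RNA, read 175, 198 and 148 against 132, 176 and 173 (log2 0.11 ± 0.17 SE, adjusted p = 0.812). All 4 probe sets of these 2 genes had log2 differences above 0 and none was called by limma (1 at an unadjusted p under 0.05). Eif2ak3, the eIF2 kinase gene left out of the members, lay the other way. It read 210, 207 and 162 in the knockout and 321, 213 and 262 in wild type, lower without overlap (log2 -0.42 ± 0.18 SE, adjusted p = 0.241). Eif2ak4, the amino acid sensor GCN2, was not analysed here.

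The eIF3 complex, a scaffold of many subunits on the small ribosomal subunit, had the most tested genes, 11, read by 19 probe sets. Limma called none (3 at an unadjusted p under 0.05). The median over its genes was -0.06, with 7 below 0 and 4 above, and it stayed below 0 in the 16 alternatives (-0.11 to -0.01). Eif3a, the largest subunit, lay lowest: 1334, 1086 and 1152 in the knockout against 1679, 1349 and 1816 in wild type, where KO903 lay just under WT5 (log2 -0.43 ± 0.14 SE, adjusted p = 0.116). Without WT5 it passed (adjusted p = 0.0359). Of its other tested probe sets, 1 was at log2 -0.23 and 1 at 0.09.

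Eif3h, a peripheral subunit, read 1648, 1637 and 1500 in the knockout and 1398, 1409 and 1498 in wild type. It was the only eIF3 gene higher without overlap, by a margin of 1500 in KO905 to 1498 in WT6 (log2 0.15 ± 0.10 SE, adjusted p = 0.504). Eif3f read 1617, 1291 and 1482 against 1511, 1723 and 1639, with overlap (log2 -0.15, adjusted p = 0.558). On their brightest probe sets Eif3b, Eif3c, Eif3d, Eif3e, Eif3i, Eif3k, Eif3l and Eif3m ranged from -0.19 to 0.12 with adjusted p of at least 0.654. Eif3e, a subunit also known from retroviral insertions in mouse mammary tumours, had a dimmer probe set, 1439268_x_at, that read 520, 531 and 736 against 806, 886 and 762. Its groups were apart there, by the gap between KO905 and WT6 (log2 -0.46 ± 0.15 SE, adjusted p = 0.122), and overlapped on the other 2 probe sets (-0.08 and -0.13).

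In the group of eIF5 and eIF6, which act at start-codon recognition and subunit joining, limma called 0 of 9 probe sets (1 at an unadjusted p under 0.05). Eif5b, the GTPase of subunit joining, gave another pair of opposed readings. On 1434604_at it read 161, 183 and 165 in the knockout and 227, 240 and 258 in wild type, lower without overlap (log2 -0.47 ± 0.14 SE, adjusted p = 0.0955). On the brighter 1434605_at it read 245, 247 and 198 against 205, 176 and 224, with overlap (log2 0.18 ± 0.16 SE, adjusted p = 0.614).

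Eif5a, the hypusine-bearing factor that helps ribosomes past difficult peptide bonds, read 5559, 5050 and 5364 against 5577, 6990 and 6043. The groups were apart by the gap between KO903 and WT4 (log2 -0.21 ± 0.11 SE, adjusted p = 0.321). Eif6, which keeps the large subunit from joining early, read 975, 940 and 1058 against 974, 878 and 920 and overlapped (log2 0.10, adjusted p = 0.72). Eif5, which stimulates the GTPase of eIF2, lay between log2 -0.10 and 0.09 on its 4 probe sets.

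The elongation factors showed no called difference in limma (0 of 7 probe sets; 1 at an unadjusted p under 0.05). Eef1a1, the tRNA carrier, read 18841, 19229 and 17234 in the knockout and 18055, 19694 and 18829 in wild type. The values interleave, and the log2 difference of -0.03 had a 95% interval of -0.22 to 0.15. Eef2 read 5875, 5340 and 5591 against 5482, 5212 and 5474, also interleaved (log2 0.06, 95% interval -0.14 to 0.25). These are the tightest bounds among the members: a change of 1.5-fold in either direction lies outside both intervals. Eef2k, the kinase that inhibits eEF2, read 181, 135 and 139 against 159, 144 and 172 (log2 -0.07, 95% interval -0.44 to 0.30).

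The exchange factor genes of eEF1A, and Eef1e1, were uneven across probe sets and arrays. Eef1d, which encodes the delta subunit, read 362, 320 and 357 in the knockout and 476, 466 and 499 in wild type on 1439439_x_at, lower without overlap (log2 -0.46 ± 0.12 SE, adjusted p = 0.0674). On its brighter probe set it read 1060, 994 and 1037 against 1016, 1257 and 1145 (log2 -0.14 ± 0.12 SE, adjusted p = 0.599). Eef1b2 read 2042, 1733 and 1928 against 2027, 1414 and 2076, with WT5 the lowest array (log2 0.07, adjusted p = 0.868). Eef1e1, a part of the tRNA ligase complex, read 266, 447 and 297 against 448, 414 and 342 (log2 -0.27 ± 0.19 SE, adjusted p = 0.513). In each of these last genes the groups overlapped.

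Probe sets of 1 gene often gave opposite signs, among the members and over all genes. Of 23 members with more than 1 tested probe set, 9 (39.1%) had log2 differences on both sides of 0, against 40.3% of 2166 genes; 11 were below 0 and 3 above on all their probe sets. Eif2s2 was the one member with non-overlapping groups in both directions (4.35% of the 23), which occurred in 0.970% of genes in all. The 12 probe sets with names ending in _x_at, which hold probes that match other sequences, had 11 differences below 0 and a median of -0.13 (all such probe sets -0.01). The 45 with plain names had 26 below 0 and a median of -0.05 (all such probe sets 0.03).

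**Figure D3:**
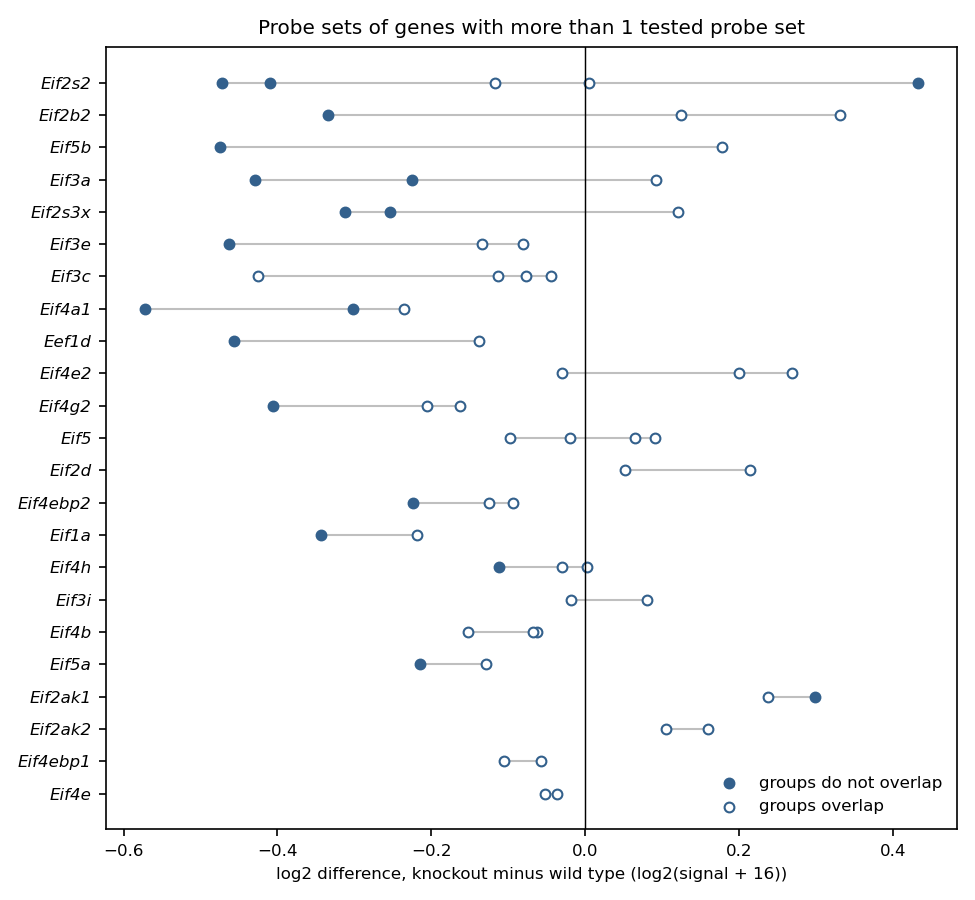
Log2 difference (knockout minus wild type, on log2(signal + 16)) of each tested probe set of the 23 genes with more than 1, ordered by the range within a gene. Filled points are probe sets whose groups do not overlap; Eif2s2 spans -0.47 to 0.43 with filled points at both ends, while the 3 points of Eif4a1 all lie below 0.

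The pathways that control these factors were read from lists of other genes. In the integrated stress response, the program set off when eIF2 is phosphorylated, 1 of 12 tested genes rose and 1 fell (background for genes 2.14% and 1.8%). Of the 12, 8 lay below 0, with a median of -0.39 against 0.03 over all genes. In limma 6 had an unadjusted p under 0.05 (background for genes 18.0%), and 7 had groups that did not overlap (background 24.1%). Their summed signal, in which bright genes weigh most, was 6995 to 8222 in the knockout and 9765 to 10707 in wild type. Ppp1r15b, the constitutive subunit of the phosphatase that restores eIF2, read 608, 537 and 519 in the knockout and 987, 840 and 861 in wild type. All knockout arrays lay lower (log2 -0.68 ± 0.12 SE, adjusted p = 0.0137). Impact, which restrains the kinase GCN2, rose from 104, 178 and 142 in wild type to 313, 276 and 266 in the knockout (log2 0.96 ± 0.19 SE, adjusted p = 0.0176). The call of Ppp1r15b ended without KO904, KO905 or WT4 (adjusted p up to 0.0618) and that of Impact without KO903, KO904 or WT4 (up to 0.0743). Over 15 alternatives the log2 differences stayed at -0.74 to -0.61 and at 0.78 to 1.13. The share called over all tested probe sets also fell without any 1 of these arrays, from 4.14% to between 1.65% and 2.39%.

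Several targets of this program had lower mean signals without passing. The transcription factor gene Atf4, the hub of the response, read 602, 979 and 799 against 1126, 1343 and 950. There KO904 overlapped WT6 (log2 -0.53 ± 0.18 SE, adjusted p = 0.145). On its dimmer 1438992_x_at Atf4 read 148, 173 and 154 against 232, 222 and 183, lower without overlap (log2 -0.39, adjusted p = 0.217). Chac1, a glutathione-degrading enzyme gene, read 173, 190 and 179 against 238, 298 and 263, without overlap (log2 -0.52 ± 0.15 SE, adjusted p = 0.076). Cebpb, a liver transcription factor gene, was lower without overlap on its brightest probe set (log2 -0.62, adjusted p = 0.0556), and passed on another (log2 -0.56, adjusted p = 0.0368). Asns, which makes asparagine, was at log2 -0.46 (adjusted p = 0.285), while Trib3 (0.30, adjusted p = 0.337) and Ppp1r15a, the inducible phosphatase subunit (0.10, adjusted p = 0.82), were above 0.

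Among 18 tested genes of cytosolic tRNA ligases, which charge tRNAs, limma called none (2 at an unadjusted p under 0.05) and 14 were below 0 (median -0.09). The alanine enzyme gene Aars had the smallest p, with 712, 910 and 877 in the knockout and 1261, 1342 and 995 in wild type (log2 -0.51 ± 0.15 SE, adjusted p = 0.0786). In mTOR and MNK signalling, which acts on the 4E-binding proteins and on eIF4E, none of 13 was called (1 at an unadjusted p under 0.05). Mknk2, an eIF4E kinase gene, had the smallest p (log2 -0.41, adjusted p = 0.114). The remaining lists gave no call in limma either: 0 of 15 mRNA-binding and accessory factors (2 at an unadjusted p under 0.05; Ddx3x, a helicase gene, log2 -0.35, adjusted p = 0.0782), 0 of 6 release and recycling factors (0; Hbs1l, a ribosome rescue factor gene, 0.27, adjusted p = 0.418, and 0.64 without overlap, adjusted p = 0.068, on its dimmer 1453604_a_at) and 0 of 5 mitochondrial translation factors (1; Tufm, the mitochondrial elongation factor gene, -1.13 ± 0.34 SE, adjusted p = 0.0955). Tufm was uneven within the knockout, at 302, 86.3 and 254 against 510, 387 and 419.

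**Figure D4:**
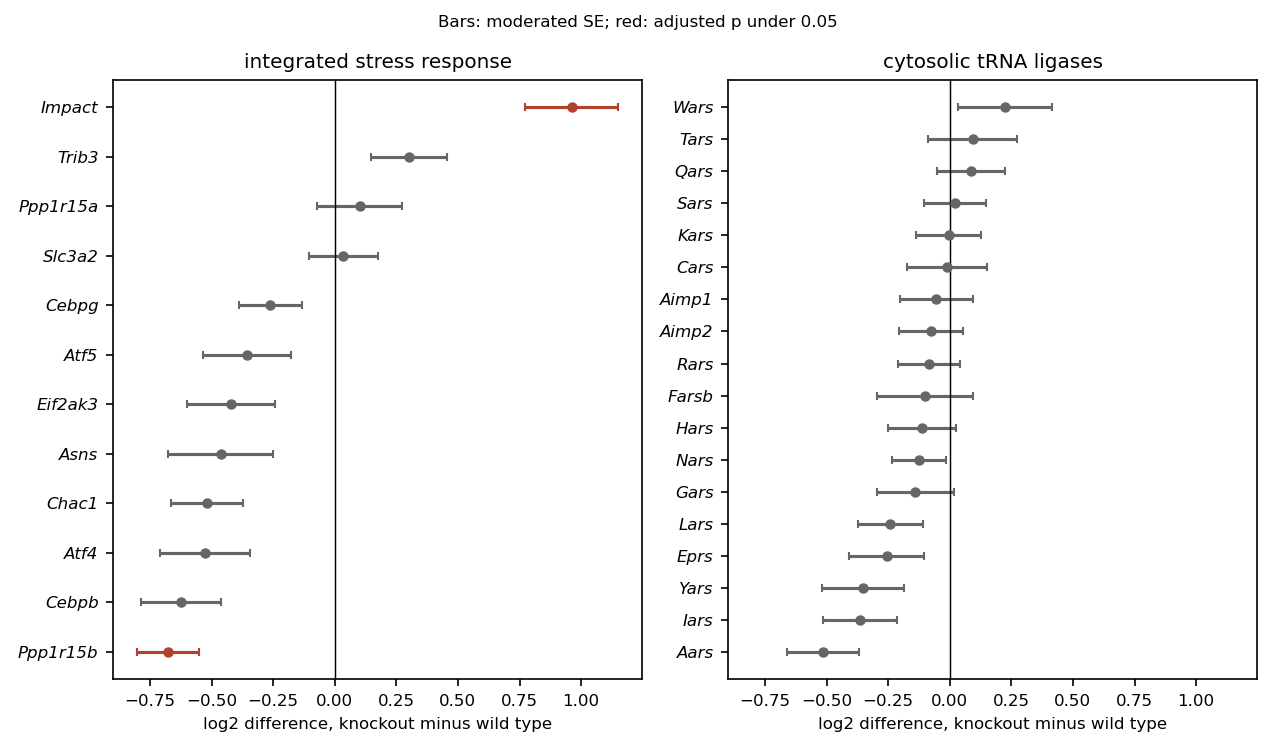
Log2 difference (knockout minus wild type) with its standard error for the tested genes of the integrated stress response and of cytosolic tRNA ligases, each on its brightest probe set. Red marks the 2 genes with an adjusted p under 0.05, Impact at 0.96 and Ppp1r15b at -0.68; Atf4, Chac1 and Aars lie near -0.5 and did not pass.

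In bulk liver, fewer cells of a type and less RNA per cell cannot be told apart, and marker genes of other cells differed in places. On their brightest probe sets the 6 tested Kupffer cell markers were all above 0 (median 0.35), with none called by limma (3 at an unadjusted p under 0.05). Their summed signal was 4595 to 6304 in the knockout and 3300 to 4700 in wild type, with overlap. Dimmer probe sets of C1qb and Csf1r leaned both ways. The 5 endothelial markers were also above 0 (median 0.14, none called, 1 at an unadjusted p under 0.05). The 5 hepatocyte markers gave a median of -0.08 with none called by limma (1 at an unadjusted p under 0.05), and their sums overlapped, at 90562 to 103040 against 95256 to 117506. Among 3 tested stellate cell markers Rgs5 rose (log2 0.71, adjusted p = 0.0251), while Col3a1 (-0.46) and Col1a2 (-0.04) were below 0 without passing and the list's median was -0.04. The erythroid heme synthesis gene Alas2, the 1 tested of its list, rose from 377 to 418 in wild type to 714 to 894 in the knockout (adjusted p = 0.00183). Both tested lymphocyte markers and the dividing cell gene Top2a (log2 0.68, adjusted p = 0.116) lay above 0 without passing, and no biliary marker was analysed here. The part of these differences in the values of the translation factors was not tested.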

How the data were processed

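Total liver RNA of 3 Atp7b knockout and 3 wild-type samples was profiled on 1 array each. The authors deposited linear intensity values, MAS 5.0 signals scaled per array to a target average of 350, per the labels. The table held 11811 probe sets; how these were chosen and detection calls are not given in the sources used here. MAS 5.0 subtracts mismatch signal and scales each array by a single factor, which leaves dim signals noisy. The number of arrays limits the precision.

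Control probe sets (33) and 1158 with a mean signal under 100 were left out, leaving 10620. Knockout and wild type were compared on log2(signal + 16) with limma 3.58.1 in R 4.3.3 (lmFit, eBayes with an intensity trend, two-sided, Benjamini-Hochberg over all probe sets, threshold 0.05); standard errors are moderated. The groups share no sample numbers and were not paired. Figures used Python 3.11.15 and matplotlib 3.10.9. On simulated data the fit called 15.4% of changes of log2 0.5, 74.1% of log2 1 and 96.3% of log2 2. The simulation changed few probe sets and drew its noise over all 10620, so its rates need not be those of the members. At such rates, real changes of the size seen among the members would mostly go uncalled. Symbols came from the platform annotation; 5 probe sets naming several genes, an Eif or Eef gene among them, were left out. Promoters are RefSeq, GRCm38.p6.

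The members, factor groups, lists and naming rule were chosen with earlier results of these data known. Named are called members, the 3 genes with the smallest p of each group, Eif2s3x, Eif4ebp1, Eif4ebp2, Eef2k, Eef1a1 and Eef2, and in each other list its called genes or the gene with the smallest p; further genes and probe sets were chosen after their values were seen. Alternatives were quantile normalization, centring on array medians, pseudocounts of 1 and 64, no signal filter, a minimum of 200, no trend, robust eBayes, array weights, each sample left out, a threshold of 0.10 and averaging a gene's probe sets.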

Additional observations from a re-analysis of the deposited data

How the results depend on the processing

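The count of 1 called member probe set was 2 after quantile normalization, 3 with arrays centred, at a minimum signal of 200 and with array weights, and 6 at a threshold of 0.10. It was 0 to 2 with 1 sample left out: 0 without KO903, KO904, WT4 or WT6 and 2 without WT5. Pseudocounts of 1 and 64, no filter, no trend and robust eBayes kept it at 1. The added calls at the minimum of 200, after centring and with array weights were Eif2s2 on 1448820_a_at and Eif4g2 on 1415863_at, both lower in the knockout; quantile normalization added the former, and leaving out WT5 added Eif3a. Eif4a1 on 1434985_a_at was called in 11 of 15 alternatives, at log2 -0.65 to -0.53. The median over member genes stayed below 0 in 16 alternatives (-0.09 to -0.03), and the median over all genes stayed above it (0.01 to 0.05). The sign of an uncalled difference turned with 1 sample left out for Eif2d (-0.035 to 0.11; below 0 without WT4), Eif2ak2 (-0.015 to 0.21; WT4), Eef1b2 (-0.11 to 0.16; WT5), Eef2k (-0.19 to 0.0046; above 0 without KO904), Eef1a1 (-0.065 to 0.014; KO905) and Eif2s2 on 1417713_at (-0.22 to 0.21; below 0 without KO905 or WT5), and for the last also with arrays centred (-0.022) and with array weights (-0.093). The causes were not tested. Among factor groups the median also turned sign for eIF2B, eIF4F, eIF5 and eIF6, and eEF2. No paired analysis was possible because the groups share no sample numbers. Dim probe sets limit what can be read for Eif2ak2, Eef2k and Eif4e3.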
